A study of Mus musculus with 6 samples.

Results

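GM-BMDC, dendritic cells grown from mouse bone marrow with GM-CSF, were compared with M-BMM, macrophages grown from mouse bone marrow with L cell conditioned medium. The comparison rests on 4 of the 6 arrays in the series, namely the 2 arrays titled as sorted GM-BMDC and the 2 titled as sorted M-BMM. It was described over 19938 genes, each represented by 1 probe set that the array annotation assigns to that gene alone. Of several such probe sets of a gene, the brightest on average across the 6 arrays stood for it. The other 2 arrays hold GM-BMM, the F4/80-high macrophages of the GM-CSF cultures, and they entered the estimate of the spread and are given beside the comparison.

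The labels give every array as C57BL/6J, male, 6 to 10 weeks of age, with 7 days of differentiation in medium holding 10% serum. GM-BMDC received GM-CSF at 25 ng/ml for the whole period and were sorted for high MHC class II and low F4/80. GM-BMM received the same GM-CSF and were sorted for low MHC class II and high F4/80. M-BMM received no added GM-CSF according to the labels but L cell conditioned medium at 20% as the source of M-CSF, and were sorted as CD11b and F4/80 positive. L cell conditioned medium is a mixture that carries other secreted products besides M-CSF. The growth medium and the sort gate both differ between GM-BMDC and M-BMM, so their parts in any difference cannot be told apart. The labels call the 2 samples of a group biological replicates without giving the number of animals or cultures. The p-values rest on the spread between the samples of a group, pooled over the populations and drawn towards that of all genes. That spread may be technical, although the 2 samples of each GM-CSF population differed in the Y-linked gene Eif2s3y, as given below.

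GM-CSF and M-CSF both act on myeloid progenitors. GM-CSF signals through a receptor whose shared beta chain recruits the kinase JAK2 and the transcription factor STAT5, whereas M-CSF signals through the receptor tyrosine kinase encoded by Csf1r and supports macrophage survival. Dendritic cells take up antigen, load peptides on MHC class II and, once mature, follow the receptor CCR7 to lymph nodes, while macrophages specialise in engulfing and degrading particles and dying cells. Marrow cultures in GM-CSF are known to hold cells of both kinds, which is why they are often sorted before use.

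All levels below are log2 RMA signals, which place the arrays on a common scale but cannot be compared between genes. Means below 5.04, the 25th percentile over the whole table, are called low, since nothing shows that such a signal exceeds background, and a fold that rests on one is marked. Each fold is followed in brackets by the log2 difference, GM-BMDC minus M-BMM, ± limma's standard error (n = 2 arrays against 2). A gene passed where limma's p, adjusted over all 19938 genes, was under 0.05. In bulk RNA, fewer cells of a type and less RNA per cell cannot be told apart.

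Array medians lay between 6.18 and 6.28. The RNA did not follow the label of sex in every library. Xist, which is transcribed from the inactive X chromosome of female cells, measured 11.66 and 10.68 in GM-BMDC and 4.53 and 4.80 in M-BMM, and the Y-linked gene Eif2s3y measured 3.94 and 8.80 in GM-BMDC and 9.32 and 9.17 in M-BMM. GM-BMDC replicate 1 was thus high in Xist and low in the Y-linked gene, GM-BMDC replicate 2 was high in both, and both M-BMM arrays had Y-linked signal alone. GM-BMM replicate 1 resembled GM-BMDC replicate 1 and GM-BMM replicate 2 resembled M-BMM, with 11.58 and 4.93 for Xist and 3.66 and 9.10 for Eif2s3y, so the GM-CSF arrays numbered 1 share this feature. Xist itself passed (log2 difference 6.50 ± 1.76, limma adjusted p = 0.0445) and was lost without any 1 of the 4 arrays compared. Of the 739 genes of the X chromosome, 43 were higher and 58 lower, or 13.7% called against 16.7% of all genes, with a median log2 difference of 0.0074, and the part of sex in any other result was not tested. Counts without GM-BMDC replicate 1 are given below for that reason.

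Genes of the sort markers were read first, and for them too gate and medium cannot be told apart. The class II chain genes H2-Ab1 (13.09 and 13.17 in GM-BMDC against 5.81 and 6.35 in M-BMM), H2-Aa (13.07 and 13.05 in GM-BMDC against 6.37 and 6.11 in M-BMM) and H2-Eb1 (13.03 and 13.03 in GM-BMDC against 7.18 and 7.70 in M-BMM) were high in both GM-BMDC arrays and far lower in both M-BMM arrays. Adgre1, which encodes F4/80, measured 9.39 and 10.91 in GM-BMDC and 12.73 and 12.79 in M-BMM, 6.10-fold (-2.61 ± 0.42) lower, and Itgam, which encodes CD11b, measured 9.67 and 10.75 in GM-BMDC and 11.87 and 11.84 in M-BMM, 3.13-fold (-1.64 ± 0.30) lower. GM-BMDC replicate 2 lay above replicate 1 in both genes, and both calls (limma adjusted p = 0.00530 and 0.00961) were lost without either M-BMM array. H2-Ea was low in every array, with 4.70 and 4.13 in GM-BMDC and 4.12 and 4.14 in M-BMM, so it could not serve as a check of the sort.

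Among the 3 populations, GM-BMDC and M-BMM lay furthest apart. The root mean square log2 difference between their means over all genes was 0.648, with 0.634 to 0.713 over the pairs of single arrays, against 0.522 (0.492 to 0.628) for GM-BMDC and GM-BMM and 0.467 (0.459 to 0.545) for GM-BMM and M-BMM. The ranges over array pairs of the first comparison and the other two did not overlap. Replicate arrays were separated by 0.281 (GM-BMDC), 0.310 (GM-BMM) and 0.210 (M-BMM). No test was made of these distances.

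Of 19938 genes, 3323 differed between GM-BMDC and M-BMM by limma, 16.7% of those tested. GM-BMDC were higher in 1548 genes (7.76%) and lower in 1775 (8.9%). In the fit of 6 arrays the lower calls were more numerous but smaller. Which direction had more calls changed between the fits that left out 1 array. Of the higher and lower genes, 771 and 614 differed by at least 2-fold, 291 and 137 by at least 4-fold, and 54 and 16 by at least 16-fold. In each of the 3323 genes both arrays of one population lay above both arrays of the other. A call at this threshold makes such separation likely, so it adds no support to the calls. The share of all genes that separated in this way is not given here. The M-BMM mean was low in 117 of the genes higher in GM-BMDC, and the GM-BMDC mean was low in 64 of those lower in GM-BMDC. The counts depended on the M-BMM arrays, falling to 731 and 557 without M-BMM replicate 1 and to 733 and 729 without M-BMM replicate 2. They were 1120 and 941 without GM-BMDC replicate 1 and 1354 and 1575 without GM-BMDC replicate 2. In all 6 fits that each left out 1 array, 641 of the higher and 515 of the lower genes stayed past the threshold. Beside this comparison, GM-BMDC and GM-BMM differed in 10.4% of genes and GM-BMM and M-BMM in 6.19%, and these comparisons share arrays. Counts of list members below are to be read against the 16.7% of all genes.

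**Figure D1:**
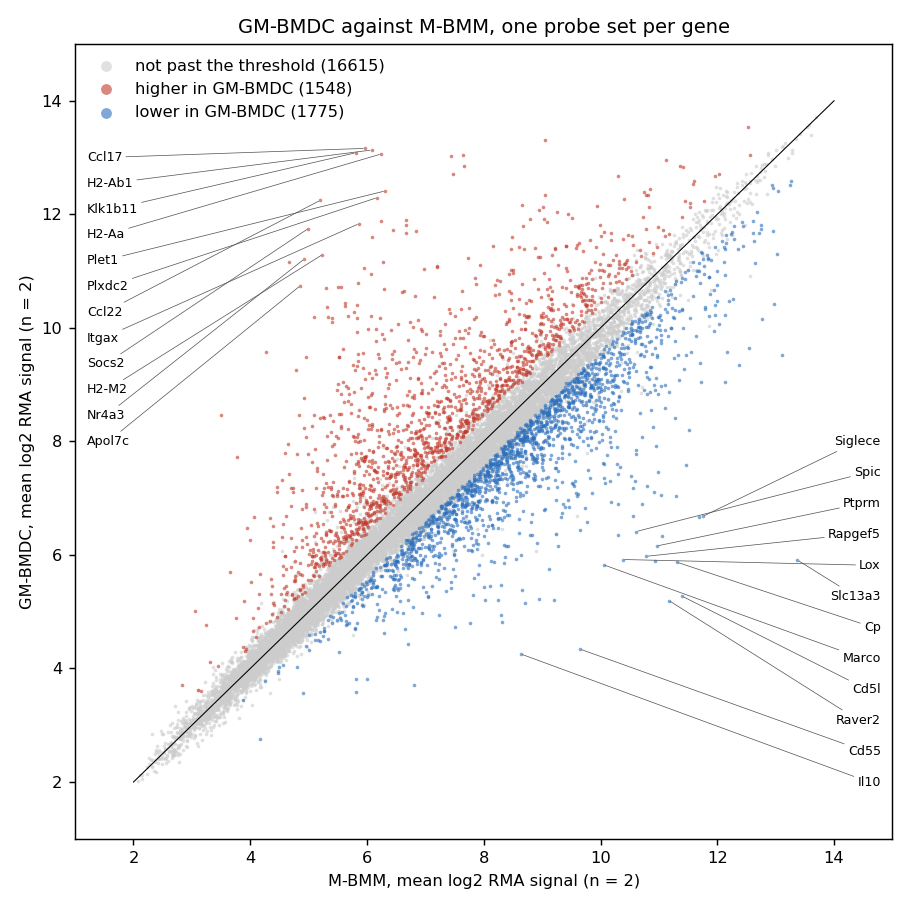
Mean log2 RMA signal of every gene in M-BMM (horizontal) and GM-BMDC (vertical), 2 arrays each; each point is 1 gene, red points passed as higher and blue points as lower in GM-BMDC, grey points did not pass, and the line marks equal signal. The 1548 higher and 1775 lower genes lie on either side of the line, and the named genes are the 12 largest differences in each direction that met the rule for naming.

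Genes given with a fold below passed in the fit of 6 arrays and in each fit that left out 1 array, unless the text says otherwise. Their fold moved by no more than 1.5 times, and their GM-BMDC and M-BMM arrays were required not to overlap. Separation of the arrays in these genes was thus fixed by selection and adds no support. The 12 largest such differences in the direction of GM-BMDC included genes of chemokines, antigen presentation and signalling. The chemokine genes Ccl17 and Ccl22 encode ligands of CCR4, a receptor on helper and regulatory T cells. Ccl17 measured 13.29 and 13.03 in GM-BMDC and 5.99 and 5.94 in M-BMM, 147-fold (7.20 ± 1.05) higher, and Ccl22 measured 12.36 and 12.12 in GM-BMDC and 5.45 and 4.94 in M-BMM, 132-fold (7.05 ± 0.35) higher. The class II chains H2-Ab1 and H2-Aa were 133-fold (7.05 ± 0.36) and 113-fold (6.82 ± 0.33) higher. H2-M2, a non-classical class I gene, measured 11.58 and 10.996 in GM-BMDC and 5.59 and 4.88 in M-BMM, 66.4-fold (6.05 ± 0.28) higher. In all of these the GM-BMDC arrays lay far above those of M-BMM, and the class II direction is not independent of the gate.

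Socs2, an inhibitor of cytokine signalling that STAT5 induces, measured 11.98 and 11.52 in GM-BMDC and 4.85 and 5.13 in M-BMM, 108-fold (6.76 ± 0.65, M-BMM mean low) higher. Nr4a3, an immediate-early nuclear receptor, measured 11.57 and 10.85 in GM-BMDC and 4.87 and 4.97 in M-BMM, 78.1-fold (6.29 ± 0.22, M-BMM mean low) higher. Itgax encodes CD11c, the integrin used to mark dendritic cells, and measured 11.87 and 11.80 in GM-BMDC and 6.01 and 5.71 in M-BMM, 62.9-fold (5.97 ± 0.22) higher. The membrane protein gene Plxdc2 measured 12.14 and 12.45 in GM-BMDC and 6.19 and 6.15 in M-BMM, 69.6-fold (6.12 ± 0.20) higher, and Plet1, which encodes another surface protein, measured 12.37 and 12.45 in GM-BMDC and 6.22 and 6.40 in M-BMM, 68.7-fold (6.10 ± 0.86) higher. Klk1b11 of the kallikrein proteases measured 13.01 and 13.16 in GM-BMDC and 5.91 and 5.70 in M-BMM, 155-fold (7.28 ± 0.66) higher, and Apol7c of the apolipoprotein L family measured 11.12 and 10.36 in GM-BMDC and 5.11 and 4.60 in M-BMM, 59.1-fold (5.89 ± 0.26, M-BMM mean low) higher. The largest limma adjusted p among these 12 genes was 0.00361 in 6 arrays and 0.0486 with 1 array left out. Klk1b11, Apol7c and H2-M2 belong to families of near-identical copies, so their signal may come in part from relatives.

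On the side of M-BMM, the 12 largest differences held scavenger, iron, complement and matrix genes. Slc13a3, a transporter of dicarboxylates such as succinate, measured 5.90 and 5.92 in GM-BMDC and 13.29 and 13.45 in M-BMM, 176-fold (-7.46 ± 0.86) lower in GM-BMDC. Cd5l, a secreted protein of tissue macrophages, measured 5.15 and 5.40 in GM-BMDC and 11.42 and 11.37 in M-BMM, 69.7-fold (-6.12 ± 0.14) lower. The ceruloplasmin gene Cp, whose product oxidises iron for export, measured 5.80 and 5.94 in GM-BMDC and 11.30 and 11.32 in M-BMM, 43.3-fold (-5.44 ± 0.17) lower. Cd55, which protects cells from complement, measured 4.21 and 4.47 in GM-BMDC and 9.69 and 9.61 in M-BMM, 39.7-fold (-5.31 ± 0.21, GM-BMDC mean low) lower. Siglece, an inhibitory receptor for sialic acid, measured 6.52 and 6.84 in GM-BMDC and 11.69 and 11.82 in M-BMM, 33.7-fold (-5.07 ± 0.21) lower. For each of these the M-BMM arrays were high and the GM-BMDC arrays near the bottom of the range of all 6.

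Marco, a scavenger receptor for bacteria, measured 5.77 and 5.88 in GM-BMDC and 10.17 and 9.94 in M-BMM, 18.8-fold (-4.23 ± 0.34) lower. The cytokine gene Il10, a brake on inflammation, measured 4.42 and 4.10 in GM-BMDC and 8.58 and 8.68 in M-BMM, 20.8-fold (-4.38 ± 0.65, GM-BMDC mean low) lower. Spic, a transcription factor of iron-recycling macrophages, measured 6.45 and 6.37 in GM-BMDC and 10.68 and 10.54 in M-BMM, 18.4-fold (-4.20 ± 0.12) lower. Lox, which cross-links collagen, measured 5.79 and 6.05 in GM-BMDC and 10.39 and 10.38 in M-BMM, 22.1-fold (-4.47 ± 0.25) lower. In these genes too the populations stood apart by far more than their arrays. The RNA-binding protein gene Raver2 was 62.8-fold (-5.97 ± 0.64) lower, the receptor phosphatase gene Ptprm 28.03-fold (-4.81 ± 0.22) lower and Rapgef5, an activator of Rap GTPases, 28.02-fold (-4.81 ± 0.44) lower. Across these 12 genes the limma adjusted p was at most 0.00386 in 6 arrays and 0.0490 with 1 array left out.

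GM-BMM, which shared the growth factor with GM-BMDC, did not hold a fixed place between them and M-BMM in these 24 genes. Plxdc2 (12.15 and 11.60) and H2-M2 (11.15 and 11.51) in GM-BMM lay near GM-BMDC and did not differ from them by the test, with GM-BMDC minus GM-BMM, in log2, at 0.42 ± 0.20 and -0.038 ± 0.28 (limma adjusted p = 0.263 and 0.962). Apol7c (5.29 and 5.15) and Nr4a3 (5.70 and 5.73) lay near M-BMM and did not differ from them by the test, with GM-BMM minus M-BMM at 0.37 ± 0.26 and 0.79 ± 0.22 (limma adjusted p = 0.545 and 0.0866). Lox (10.84 and 11.67) and Siglece (10.94 and 11.56) also lay on the side of M-BMM, at 0.87 ± 0.25 and -0.50 ± 0.21 (limma adjusted p = 0.0998 and 0.254), whereas Cd5l (6.19 and 5.93) lay nearer to GM-BMDC. In most of the 24 genes the 2 GM-BMM arrays differed from each other by more than the arrays of either other population. The exceptions were Nr4a3, H2-M2 and Apol7c. The gap was widest in Ccl17 (10.74 and 6.74), Slc13a3 (7.10 and 10.35) and Plet1 (10.71 and 7.45).

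**Figure D2:**
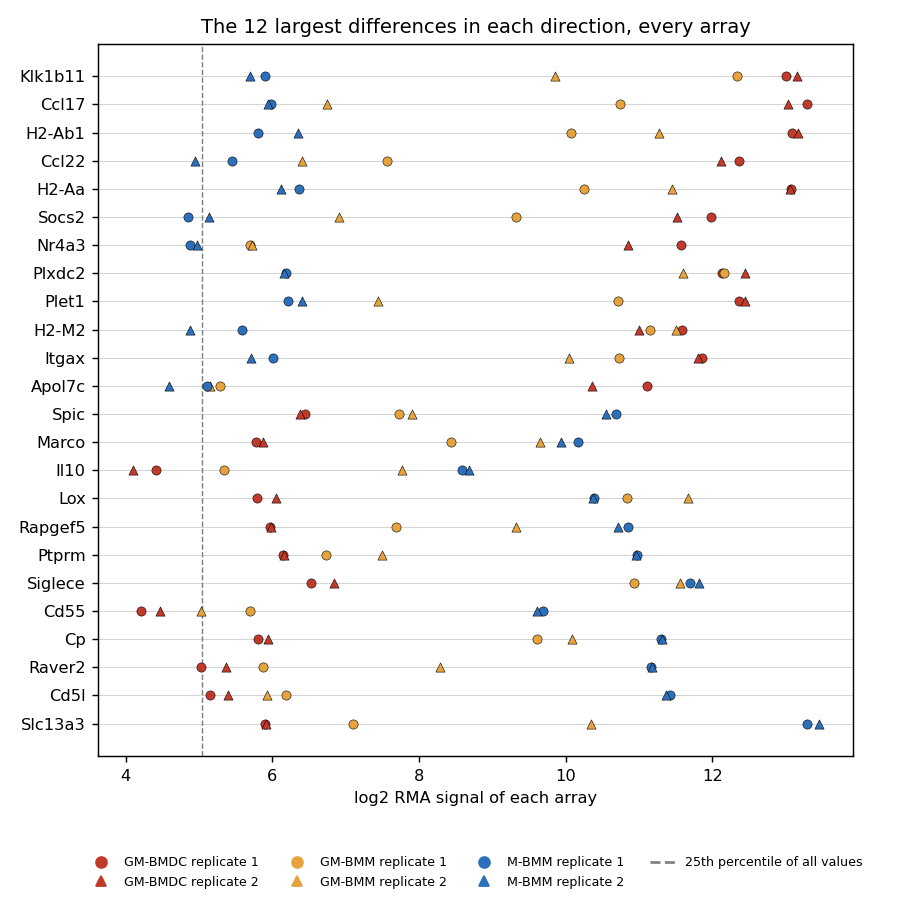
Log2 RMA signal of the 12 largest differences in each direction, 1 row per gene and 1 mark per array, with GM-BMDC red, GM-BMM orange and M-BMM blue, circles for replicate 1 and triangles for replicate 2; the dashed line marks the 25th percentile of all values, 5.04. Red and blue marks do not overlap in a row, as the rule for naming required. The orange marks lie at either end or between, as for Lox (10.84 and 11.67) and Plxdc2 (12.15 and 11.60).

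Several growth factor receptor genes were higher in GM-BMDC, while Csf1r did not pass. Csf2ra, the ligand-binding chain of the GM-CSF receptor, measured 11.09 and 11.24 in GM-BMDC and 9.87 and 9.94 in M-BMM, 2.40-fold (1.26 ± 0.11) higher. Csf2rb, the shared signalling chain, measured 12.64 and 12.71 in GM-BMDC and 10.29 and 10.30 in M-BMM, 5.21-fold (2.38 ± 0.19) higher, and its near-identical neighbour Csf2rb2 measured 12.02 and 11.81 in GM-BMDC and 9.09 and 8.99 in M-BMM, 7.33-fold (2.87 ± 0.18) higher, though probes may not separate the pair. Kit and Flt3, receptors of early progenitors that dendritic cells can keep, were 3.73-fold (1.90 ± 0.21) and 3.16-fold (1.66 ± 0.19) higher. Csf1r, the M-CSF receptor, measured 10.53 and 11.51 in GM-BMDC and 11.69 and 11.57 in M-BMM and did not pass (log2 difference -0.61 ± 0.29, limma adjusted p = 0.225). In Csf1r, GM-BMDC replicate 2 lay just below the M-BMM arrays and replicate 1 further below. The G-CSF receptor gene Csf3r measured 6.01 and 7.37 in GM-BMDC and 10.61 and 10.50 in M-BMM, 14.5-fold (-3.86 ± 0.38) lower (limma adjusted p = 0.000667), and it passed in each fit with 1 array left out, but its log2 difference ranged from -4.54 to -3.18 as the GM-BMDC arrays were left out.

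In the list of colony-stimulating factors and their receptors, 5 of 13 measured genes were higher and 2 (in turn 1, 3, 1 and 1) lower, the latter Csf3r and the cytokine gene Flt3l (log2 difference -0.46 ± 0.12), which was lost without GM-BMDC replicate 1 or either M-BMM array. Bracketed series marked "in turn" here and below are the count without GM-BMDC replicate 1, GM-BMDC replicate 2, M-BMM replicate 1 and M-BMM replicate 2, given where any of them differs from the full count by over 1.5 times. The ligand genes Csf1, Csf2, Csf3 and Il34 did not pass, with log2 differences of 0.63 ± 0.38, 0.012 ± 0.17, 0.11 ± 0.14 and 0.10 ± 0.12 (limma adjusted p = 0.354, 0.975, 0.690 and 0.681). Csf2 was low in all 3 populations. The alpha chain of the interleukin 3 receptor, Il3ra, was at -0.26 ± 0.12 (limma adjusted p = 0.204).

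Genes downstream of the GM-CSF receptor were higher in part. Among 14 JAK-STAT genes, 7 (in turn 4, 7, 4 and 4) were higher and 2 (in turn 2, 2, 0 and 0) lower, with a median log2 difference of 0.70 against -0.0024 over all genes. Jak2, the kinase on the shared beta chain, measured 11.83 and 11.38 in GM-BMDC and 8.59 and 8.39 in M-BMM, 8.65-fold (3.11 ± 0.18) higher. Stat5a, the transcription factor it activates, measured 10.32 and 9.54 in GM-BMDC and 7.84 and 8.05 in M-BMM, 3.96-fold (1.99 ± 0.24) higher. The cyclin gene Ccnd2, a STAT5 target, measured 11.92 and 10.92 in GM-BMDC and 8.73 and 8.48 in M-BMM, 7.05-fold (2.82 ± 0.36) higher. In all 3 genes the lower GM-BMDC array lay above the higher M-BMM array, which the rule for genes given with a fold required. The members that were lower were Pim2 (-2.29) and Bcl2l1 (-0.52), by log2 difference, and both were lost without either M-BMM array.

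Transcription factors of the myeloid lineage moved in both directions, with 10 of 29 higher and 7 (in turn 4, 8, 3 and 3) lower. Irf4, a factor of class II-rich and type 2 dendritic cells, measured 10.39 and 9.97 in GM-BMDC and 5.36 and 5.45 in M-BMM, 27.3-fold (4.77 ± 0.34) higher. The repressor gene Bhlhe40 measured 10.55 and 10.25 in GM-BMDC and 6.02 and 5.63 in M-BMM, 23.8-fold (4.57 ± 0.20) higher, and the Runt factor gene Runx3 measured 9.996 and 9.90 in GM-BMDC and 6.98 and 6.90 in M-BMM, 8.07-fold (3.01 ± 0.11) higher. Batf3 and Nfil3, which type 1 dendritic cells need, were 2.38-fold (1.25 ± 0.18) and 2.80-fold (1.49 ± 0.19) higher. Zbtb46, a factor whose expression marks conventional dendritic cells, measured 7.19 and 6.92 in GM-BMDC and 5.93 and 5.91 in M-BMM, 2.19-fold (1.13 ± 0.15) higher, and the HLH factor gene Id2 measured 12.64 and 12.52 in GM-BMDC and 11.64 and 11.55 in M-BMM, 1.98-fold (0.99 ± 0.11) higher. These factors stood higher in both GM-BMDC arrays than in either M-BMM array, which the rule for genes given with a fold required.

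Irf8 (0.91 ± 0.20), Relb (1.26 ± 0.21) and Gata2 (0.55 ± 0.13), by log2 difference, passed in 6 arrays but not in each smaller fit. The call of Irf8 was lost without GM-BMDC replicate 1 or either M-BMM array, of Relb without either M-BMM array and of Gata2 without any 1 of the 4 arrays compared. On the other side, Maf, a factor of mature macrophages, measured 6.38 and 7.69 in GM-BMDC and 11.28 and 11.32 in M-BMM, 19.2-fold (-4.27 ± 0.39) lower. It passed in every fit with 1 array left out, and its log2 difference ranged from -4.92 to -3.61 as the GM-BMDC arrays were left out, replicate 2 lying above replicate 1. Spic has been given above. Bhlhe41 (-1.22 ± 0.18), Nr1h3 (-1.69 ± 0.41), Cebpd (-1.04 ± 0.18), Cebpb (-0.64 ± 0.17) and Ikzf1 (-1.03 ± 0.26) passed as lower in 6 arrays. Bhlhe41 was lost without M-BMM replicate 1, Nr1h3 without any 1 of the 4 arrays compared and Cebpd without either M-BMM array. Cebpb was lost without GM-BMDC replicate 1 or either M-BMM array and Ikzf1 without GM-BMDC replicate 1 or either M-BMM array.

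Other factors with a wide role in the lineage did not pass. Spi1, which encodes the myeloid master factor PU.1, measured 11.39 and 11.61 in GM-BMDC and 11.82 and 11.87 in M-BMM (log2 difference -0.35 ± 0.14, limma adjusted p = 0.154). Cebpa was at 0.42 ± 0.22, Bcl6 at 0.19 ± 0.42, Klf4 at 0.73 ± 0.22, Klf2 at -0.14 ± 0.13 and Bcl11a at -0.58 ± 0.19. Mitf was at 0.26 ± 0.16, Tfe3 at -0.47 ± 0.14, Tfeb at 0.31 ± 0.16, Rxra at -0.90 ± 0.27 and Tfec at 1.42 ± 0.45. Pparg, which GM-CSF is known to induce in lung macrophages, measured 9.67 and 9.89 in GM-BMDC and 8.27 and 7.95 in M-BMM, with a log2 difference of 1.67 ± 0.54 (limma adjusted p = 0.0797) and a wide spread in GM-BMM (9.62 and 7.64). The limma adjusted p of these factors lay at or above 0.0756 except for Klf4 (0.0643), Rxra (0.0664) and Tfe3 (0.0699).

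**Figure D3:**
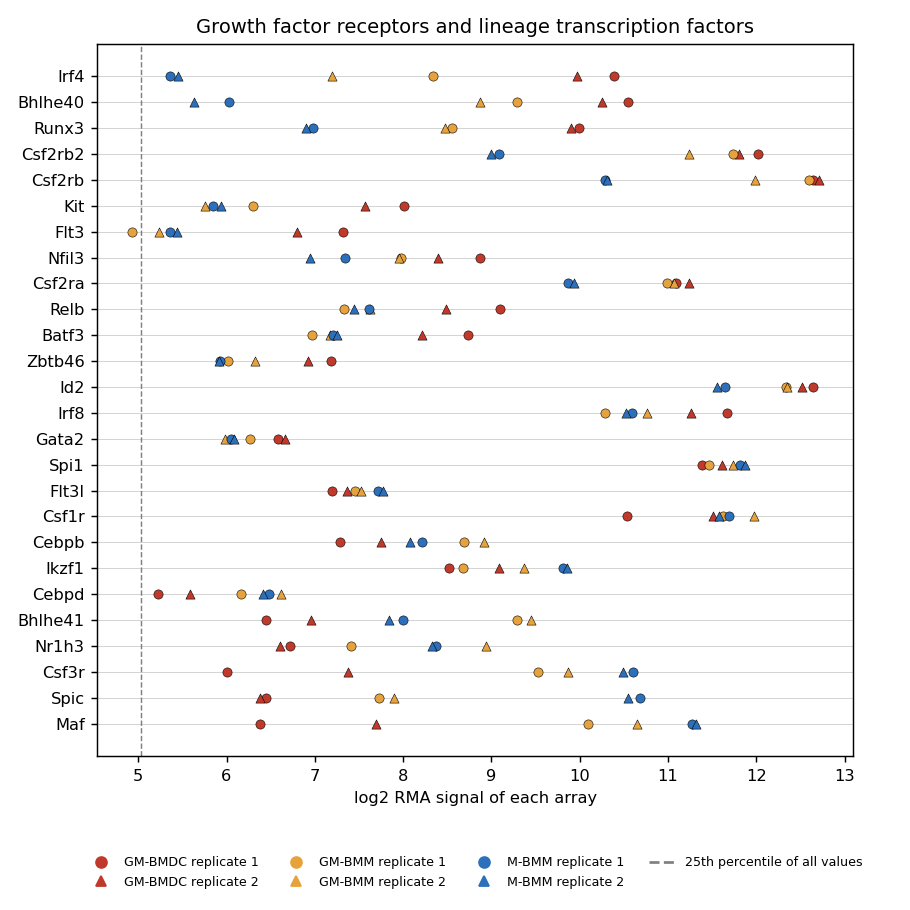
Log2 RMA signal of growth factor receptor genes and lineage factors that passed in GM-BMDC against M-BMM, with Csf1r and Spi1, which did not, and the dashed line at the 25th percentile of all values; 1 row per gene and 1 mark per array, coloured by population as GM-BMDC red, GM-BMM orange and M-BMM blue, circles for replicate 1 and triangles for replicate 2. Rows run from the largest rise, Irf4 (4.77 ± 0.34), to the largest fall, Maf (-4.27 ± 0.39), and in Maf, Csf3r and Csf1r the red triangle lies to the right of the red circle.

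Antigen presentation on class II was higher well beyond the genes of the gate, although these genes are regulated together with the gate molecule and their direction is not independent of the sort. Among 11 further class II presentation genes, 7 were higher and 2 (in turn 2, 2, 1 and 1) lower, with a median of 2.99. The class II transactivator gene Ciita measured 10.17 and 10.17 in GM-BMDC and 5.84 and 5.84 in M-BMM, 20.1-fold (4.33 ± 0.20) higher. Cd74, the invariant chain that guides class II to its loading compartment, measured 13.05 and 13.04 in GM-BMDC and 7.57 and 7.73 in M-BMM, 42.01-fold (5.39 ± 0.16) higher. The peptide-editing chain H2-DMa measured 11.66 and 11.93 in GM-BMDC and 8.65 and 8.70 in M-BMM, 8.70-fold (3.12 ± 0.22) higher, and H2-Eb2 measured 10.35 and 9.85 in GM-BMDC and 5.42 and 5.39 in M-BMM, 25.9-fold (4.70 ± 0.19) higher. The lower members were Lgmn, a lysosomal protease that trims the invariant chain, at 2.14-fold (-1.10 ± 0.14), and Marchf1, a ligase that removes class II from the surface, at a log2 difference of -1.14 ± 0.27, lost without either M-BMM array.

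Class II promoters are known for a conserved set of boxes, of which the Y box holds an inverted CCAAT. The 8 letters CTGATTGG, or CCAATCAG on the other strand, were searched in RefSeq promoters of build GRCm38.p6, from 250 bases before to 50 after the start. They occurred in 5.437% of 15614 genes with a promoter. Of the 17 class II and gate genes, 12 had a promoter, and 4 held the letters, H2-Aa, H2-Eb1, H2-Eb2 and H2-Oa, all of them among the 7 of these 12 genes that were higher. These 4 stretches are printed to show the shared block, with the match in capitals, from 5′ to 3′ on the strand of the gene.

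H2-Aa promoter, chr17:34287832-34287909, minus strand: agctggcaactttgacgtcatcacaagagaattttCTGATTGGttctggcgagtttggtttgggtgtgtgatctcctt
H2-Eb1 promoter, chr17:34305770-34305847, plus strand: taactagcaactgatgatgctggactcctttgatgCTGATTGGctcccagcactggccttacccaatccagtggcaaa
H2-Eb2 promoter, chr17:34325537-34325614, plus strand: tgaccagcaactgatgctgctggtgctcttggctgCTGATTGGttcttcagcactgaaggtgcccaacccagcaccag
H2-Oa promoter, chr17:34092298-34092375, plus strand: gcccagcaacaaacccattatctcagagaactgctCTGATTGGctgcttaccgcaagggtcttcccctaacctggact

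In these promoters the match began 46 to 103 bases before the start. The letters are a description of the window and do not show that a factor bound there. They were chosen as a feature of class II promoters, so their place among the higher genes adds no support. MHC class I presentation, by comparison, had 2 (in turn 1, 3, 0 and 0) of 14 genes higher, Psme1 (0.79) and Tapbpl (0.66) by log2 difference, and 0 lower, a share near the 16.7% of all genes.

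Most genes of the conventional dendritic cell core were higher. Of 26 measured members, 23 were higher and 0 (in turn 0, 0, 1 and 0) lower, and the median log2 difference was 2.37 against -0.0024 over all genes. P2ry10, a receptor for lysophospholipids, measured 8.64 and 8.28 in GM-BMDC and 3.75 and 3.25 in M-BMM, 31.1-fold (4.96 ± 0.26, M-BMM mean low) higher. The surface peptidase gene Dpp4 measured 9.82 and 9.42 in GM-BMDC and 5.60 and 5.57 in M-BMM, 16.4-fold (4.04 ± 0.15) higher. The aspartic protease gene Napsa measured 11.25 and 10.95 in GM-BMDC and 7.34 and 7.08 in M-BMM, 14.8-fold (3.89 ± 0.15) higher. Both GM-BMDC arrays exceeded both M-BMM arrays in these genes, which the rule for genes given with a fold required. Itgax and Zbtb46 have been given above. Beside these counts, which share arrays with the following, GM-BMDC minus GM-BMM gave 23 members higher and 0 lower, and GM-BMM minus M-BMM gave 6 and 1.

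Markers of the dendritic cell subtypes did not all move together. Of 11 type 1 genes, 5 (in turn 4, 4, 4 and 3) were higher and 2 (in turn 1, 1, 0 and 0, 1 without either GM-BMM array) lower. The hydrolase gene Naaa measured 12.07 and 12.59 in GM-BMDC and 9.12 and 8.96 in M-BMM, 9.80-fold (3.29 ± 0.24) higher, and Clec9a, a receptor for dead cells, measured 6.82 and 6.97 in GM-BMDC and 5.06 and 4.87 in M-BMM, 3.83-fold (1.94 ± 0.23, M-BMM mean low) higher. The other higher members were Batf3, given above, and, by log2 difference, Irf8 (0.91 ± 0.20) and Gcsam (0.55 ± 0.13), and the lower ones were Tlr3 (-1.73) and Cadm1 (-0.44). Of 10 type 2 genes, 3 (in turn 4, 3, 1 and 2) were higher, Mgl2 (5.51), Cd209a (5.04) and Irf4 (4.77), and 2 (in turn 2, 2, 1 and 1) lower, Clec12a (-1.81) and Sirpa (-0.94). The lectin gene Mgl2 measured 11.41 and 11.80 in GM-BMDC and 5.91 and 6.27 in M-BMM, with 9.47 and 5.87 in GM-BMM, and its call was lost without either M-BMM array. Cd209a, a lectin that marks monocyte-derived and type 2 cells, measured 9.04 and 11.69 in GM-BMDC and 5.23 and 5.42 in M-BMM, so the GM-BMDC arrays were far apart, and its call was lost without M-BMM replicate 1. Sirpa, the receptor for CD47 that both macrophages and type 2 cells carry, measured 11.54 and 11.81 in GM-BMDC and 12.63 and 12.60 in M-BMM. Of 9 plasmacytoid genes, 2 (in turn 2, 3, 1 and 2) were higher, Spib (1.71) and Pacsin1 (1.17), and 2 (in turn 1, 1, 1 and 1) lower, Cox6a2 (-1.09) and Bst2 (-1.03), so no subtype list was higher as a whole.

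Most measured genes of dendritic cell maturation and migration were also higher. Of 29 measured members, 24 were higher and 0 lower, with a median of 2.31. The chemokines Ccl17 and Ccl22 and Socs2 and Apol7c, given above, led the list. Ccr7, which guides mature dendritic cells to lymph nodes, measured 11.94 and 11.82 in GM-BMDC and 5.94 and 6.53 in M-BMM, 50.2-fold (5.65 ± 0.19) higher. Fscn1, which bundles actin in their processes, measured 12.003 and 11.41 in GM-BMDC and 6.93 and 6.76 in M-BMM, 29.1-fold (4.87 ± 0.22) higher. Against GM-BMM the list had 23 higher and 0 lower, and GM-BMM against M-BMM had 9 higher and 2 lower. Mean levels of the list were 10.56 and 9.96 in the GM-BMDC arrays, 8.08 and 7.78 in GM-BMM and 7.36 and 7.29 in M-BMM, with GM-BMDC replicate 1 the highest.

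Costimulatory and inhibitory ligands had 11 of 20 higher and 3 lower. Cd86, which binds CD28 on T cells, measured 10.96 and 10.53 in GM-BMDC and 8.19 and 8.18 in M-BMM, 5.91-fold (2.56 ± 0.19) higher. Pdcd1lg2, a ligand of the inhibitory receptor PD-1, measured 11.06 and 10.39 in GM-BMDC and 5.53 and 5.48 in M-BMM, 37.4-fold (5.22 ± 0.45) higher. Cd200, which restrains myeloid cells through its receptor, measured 8.85 and 7.70 in GM-BMDC and 4.82 and 5.30 in M-BMM, 9.26-fold (3.21 ± 0.34) higher, and Slamf1, an adhesion receptor between lymphoid and myeloid cells, measured 9.07 and 8.14 in GM-BMDC and 5.98 and 6.08 in M-BMM, 5.95-fold (2.57 ± 0.28) higher. The lower members were Vsir (-1.78), Tnfrsf14 (-1.54) and Cd48 (-0.83) by log2 difference. Cd86 and Pdcd1lg2 thus stood high together, although the receptors they bind are known for opposite effects on T cells.

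The NF-kappaB subunits and regulators had 9 (in turn 6, 8, 4 and 4) of 16 higher and 2 (in turn 2, 2, 1 and 1) lower. The adaptor gene Traf1 measured 10.26 and 9.52 in GM-BMDC and 6.45 and 6.06 in M-BMM, 12.4-fold (3.63 ± 0.24) higher. Map3k14, the kinase that starts the alternative pathway, measured 9.998 and 9.13 in GM-BMDC and 7.28 and 7.24 in M-BMM, 4.94-fold (2.30 ± 0.25) higher. The subunit gene Rel was 3.66-fold (1.87 ± 0.20) higher and Nfkbie, an inhibitor, 3.92-fold (1.97 ± 0.18) higher. Ikbke, a kinase that also activates interferon regulatory factors, measured 9.12 and 9.03 in GM-BMDC and 11.36 and 11.34 in M-BMM, 4.85-fold (-2.28 ± 0.18) lower. The other lower member was Nfkbiz, an atypical inhibitor protein gene, at a log2 difference of -2.06 ± 0.35, lost without either M-BMM array. Members that activate and members that inhibit the pathway were thus both among the higher ones.

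Part of the core macrophage list was lower in GM-BMDC. Of 32 core macrophage genes, 1 (in turn 1, 1, 0 and 0) was higher, Tbxas1 (0.85 ± 0.15 by log2 difference), and 18 (in turn 12, 20, 4 and 5) were lower, with a median of -0.73. The tyrosine kinase gene Fer measured 5.17 and 5.60 in GM-BMDC and 8.67 and 8.63 in M-BMM, 9.62-fold (-3.27 ± 0.15) lower. Ctsl, a lysosomal protease, measured 10.07 and 10.61 in GM-BMDC and 11.82 and 11.75 in M-BMM, 2.73-fold (-1.45 ± 0.19) lower. The transporter gene Slc38a7 and the phospholipase gene Pla2g15 were 2.57-fold (-1.36 ± 0.12) and 2.02-fold (-1.01 ± 0.13) lower. Most of the list's calls needed both M-BMM arrays. Mean levels of the list were 8.69 and 9.20 in the GM-BMDC arrays, 9.92 and 9.86 in GM-BMM and 9.81 and 9.72 in M-BMM, so GM-BMDC replicate 2 stood closer to the macrophage arrays than replicate 1. Whether more macrophages were carried into that sort was not tested.

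Receptors that take up particles and dying cells were split. Of 22 scavenger and apoptotic cell receptors, 3 were higher and 6 (in turn 4, 11, 3 and 3) lower. Axl, a TAM receptor kinase, measured 11.41 and 11.46 in GM-BMDC and 8.27 and 8.03 in M-BMM, 9.76-fold (3.29 ± 0.13) higher, while Gas6, its ligand, measured 6.28 and 7.04 in GM-BMDC and 9.29 and 9.35 in M-BMM, 6.31-fold (-2.66 ± 0.37) lower. The bridging protein gene Mfge8 measured 11.09 and 11.14 in GM-BMDC and 7.99 and 7.89 in M-BMM, 9.03-fold (3.17 ± 0.12) higher, and Cd36, a receptor for lipids, measured 11.81 and 11.44 in GM-BMDC and 10.24 and 9.78 in M-BMM, 3.07-fold (1.62 ± 0.20) higher. GM-BMM stood at 11.38 and 11.49 in Axl, beside GM-BMDC (limma adjusted p = 0.988 for GM-BMDC minus GM-BMM). The receptor Axl and its ligand Gas6 thus differed in opposite directions. Beside these and Cd5l and Marco, given above, the lower members were Stab1 (-1.90 ± 0.31), Lrp1 (-0.55 ± 0.12) and Cd68 (-0.74 ± 0.19), by log2 difference, and none of these 3 calls held without either M-BMM array.

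Complement genes had 0 of 14 higher and 4 (in turn 2, 6, 2 and 2) lower, Cd55 (-5.31), Cfb (-1.57), C3ar1 (-1.25) and C5ar2 (-0.67) by log2 difference. C3ar1, the receptor for the anaphylatoxin C3a, measured 11.49 and 11.92 in GM-BMDC and 12.97 and 12.94 in M-BMM, 2.39-fold (-1.25 ± 0.17) lower. Fc receptors had 0 (in turn 1, 1, 0 and 0) of 9 higher and 4 (in turn 1, 4, 1 and 1) lower, Fcgr4 (-5.02), Fcrls (-2.59), Fcgr1 (-1.16) and Fcer1g (-0.48). Fcgr4, the activating receptor for IgG2 that macrophages carry, measured 6.02 and 7.31 in GM-BMDC and 11.72 and 11.66 in M-BMM, and it passed without any 1 array, with a log2 difference from -5.67 to -4.38 as the GM-BMDC arrays were left out. Siglec, CD300 and TREM receptors had 4 (in turn 3, 2, 2 and 2) of 21 higher and 6 (in turn 5, 9, 2 and 3) lower. The sialic acid receptor gene Siglec1, a marker of resident macrophages, measured 6.33 and 6.81 in GM-BMDC and 9.80 and 9.72 in M-BMM, 9.11-fold (-3.19 ± 0.38) lower, whereas Trem1, an activating receptor, measured 6.97 and 7.87 in GM-BMDC and 5.16 and 5.34 in M-BMM, 4.50-fold (2.17 ± 0.26) higher and Siglecg 2.10-fold (1.07 ± 0.12) higher. C-type lectins had 8 (in turn 9, 7, 4 and 5) of 21 higher and 6 (in turn 2, 6, 0 and 0) lower. Clec7a, the beta-glucan receptor dectin-1, measured 10.96 and 11.19 in GM-BMDC and 7.36 and 7.03 in M-BMM, 14.7-fold (3.88 ± 0.21) higher. Clec4n, which encodes dectin-2, was 4.62-fold (2.21 ± 0.26) higher and the uptake receptor gene Ly75 7.003-fold (2.81 ± 0.27) higher. The shares called were 28.6% for complement, 44.4% for Fc receptors, 47.6% for Siglec, CD300 and TREM receptors and 66.7% for lectins. Over all genes the share was 16.7%.

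The lysosome list leaned towards M-BMM. Of 45 measured members, 23 (in turn 13, 25, 9 and 10) were lower in GM-BMDC and 3 (in turn 3, 2, 1 and 1) higher, with a median of -0.56. Acp2, a lysosomal acid phosphatase, measured 9.43 and 9.60 in GM-BMDC and 11.48 and 11.46 in M-BMM, 3.88-fold (-1.96 ± 0.19) lower. The glycogen-degrading enzyme gene Gaa measured 8.12 and 8.13 in GM-BMDC and 9.60 and 9.60 in M-BMM, 2.78-fold (-1.47 ± 0.11) lower, and Idua, which degrades heparan and dermatan sulfate, measured 8.77 and 8.73 in GM-BMDC and 10.09 and 10.16 in M-BMM, 2.59-fold (-1.37 ± 0.12) lower. The exceptions were Atp6v0d2 (4.07), Gm2a (0.68) and Ids (0.44) by log2 difference. Atp6v0d2, a subunit of the proton pump found in osteoclasts and GM-CSF macrophages, measured 10.79 and 11.28 in GM-BMDC and 6.98 and 6.95 in M-BMM, 16.8-fold (4.07 ± 0.38) higher, and GM-BMM stood at 12.03 and 10.71. Against GM-BMM the list had 20 lower and 2 higher in GM-BMDC. The 8 letters TCACGTGA, a palindrome bound by TFEB and its relatives, lay in the promoters of 7 of 37 lysosome genes (18.92%) against 1.524% of all 15614 genes, but in 4 of the 19 lower members and 3 of the 16 that did not pass.

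Toll-like receptors and their adaptors had 3 (in turn 0, 1, 0 and 0) of 23 higher, Traf6 (0.93), Tlr12 (0.57) and Ticam1 (0.52) by log2 difference, and 8 (in turn 6, 10, 2 and 2) lower. Tlr1, which senses lipopeptides with TLR2, measured 7.40 and 7.78 in GM-BMDC and 11.50 and 11.42 in M-BMM, 14.6-fold (-3.87 ± 0.43) lower. Irak3, a brake on the pathway, measured 9.11 and 9.43 in GM-BMDC and 11.45 and 11.43 in M-BMM, 4.49-fold (-2.17 ± 0.15) lower. Inflammasome sensors and caspases had 0 (in turn 1, 0, 0 and 0) of 15 higher and 6 (in turn 1, 6, 0 and 0) lower, with a median of 0.10. None of the inflammasome calls held without either M-BMM array. The shares called were 47.8% of the Toll-like receptor list and 40% of the inflammasome list, against 16.7% of all genes.

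Genes of the type I interferon response were lower in GM-BMDC, and no measured member was called higher in the fit of 6 arrays. Of 29 members, 22 (in turn 18, 17, 11 and 14) were lower and 0 (1 without either GM-BMM array) higher, and the median log2 difference was -1.16, against -0.0024 over all genes. The antiviral gene Ifit3 measured 6.89 and 8.04 in GM-BMDC and 11.01 and 10.94 in M-BMM, 11.4-fold (-3.51 ± 0.44) lower, and its relative Ifit2 measured 6.83 and 6.98 in GM-BMDC and 10.36 and 10.23 in M-BMM, 10.5-fold (-3.39 ± 0.40) lower. Oas2, which makes the messenger that activates RNase L, measured 6.84 and 7.53 in GM-BMDC and 10.58 and 10.53 in M-BMM, 10.4-fold (-3.38 ± 0.22) lower. Irf7, the factor that amplifies interferon production, measured 7.73 and 7.97 in GM-BMDC and 10.69 and 10.54 in M-BMM, 6.79-fold (-2.76 ± 0.26) lower. The M-BMM arrays were close together in these genes and both GM-BMDC arrays lay well below them. Members of the Ifit family are similar in sequence, so their probe sets may share signal.

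GM-BMM stood near M-BMM or above them in this list. Its mean level was 8.33 and 8.36 in the GM-BMDC arrays, 9.64 and 10.34 in GM-BMM and 9.83 and 9.69 in M-BMM, with the second GM-BMM array the highest. Against GM-BMM, 23 members were lower in GM-BMDC and 0 higher, and GM-BMM against M-BMM had 1 higher and 0 lower. Of the populations grown in GM-CSF, GM-BMDC thus had the lower levels and GM-BMM did not.

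Interferon-stimulated genes are known for a shared response element in their promoters. The 9 letters GAAANNGAA, or TTCNNTTTC on the other strand, lie within it and were found in the promoters of 9.203% of 15614 genes. Of the 29 members of the interferon list, 21 had a promoter, and 11 of these (52.38%) held the letters. They were in 10 of the 16 lower members (62.5%) and 1 of the 5 that did not pass. The stretches around the first match in Ifit3, Rsad2, Ddx60 and Ifit1 are shown because these genes were among the lower ones, with all matches in capitals.

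Ifit3 promoter, chr19:34583339-34583417, plus strand: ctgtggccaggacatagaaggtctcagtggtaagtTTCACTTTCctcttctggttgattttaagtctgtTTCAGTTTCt
Rsad2 promoter, chr12:26456528-26456606, minus strand: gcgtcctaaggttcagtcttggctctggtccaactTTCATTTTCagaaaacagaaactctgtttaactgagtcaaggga
Ddx60 promoter, chr8:61927999-61928077, plus strand: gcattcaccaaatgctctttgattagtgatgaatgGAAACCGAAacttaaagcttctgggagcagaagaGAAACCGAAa
Ifit1 promoter, chr19:34640745-34640823, plus strand: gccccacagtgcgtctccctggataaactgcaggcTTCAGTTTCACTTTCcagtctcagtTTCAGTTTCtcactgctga

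Rsad2, which encodes the antiviral enzyme viperin, measured 8.30 and 8.19 in GM-BMDC and 10.98 and 10.83 in M-BMM, at a log2 difference of -2.66 ± 0.20. The RNA helicase relative Ddx60 measured 6.74 and 6.72 in GM-BMDC and 9.47 and 9.20 in M-BMM, at -2.61 ± 0.16, and Ifit1 measured 7.55 and 7.65 in GM-BMDC and 10.16 and 9.96 in M-BMM, at -2.46 ± 0.19. These 3 genes were shown for their promoters and were not named by the rule. A match describes the letters of the window and is not evidence of binding.

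**Figure D4:**
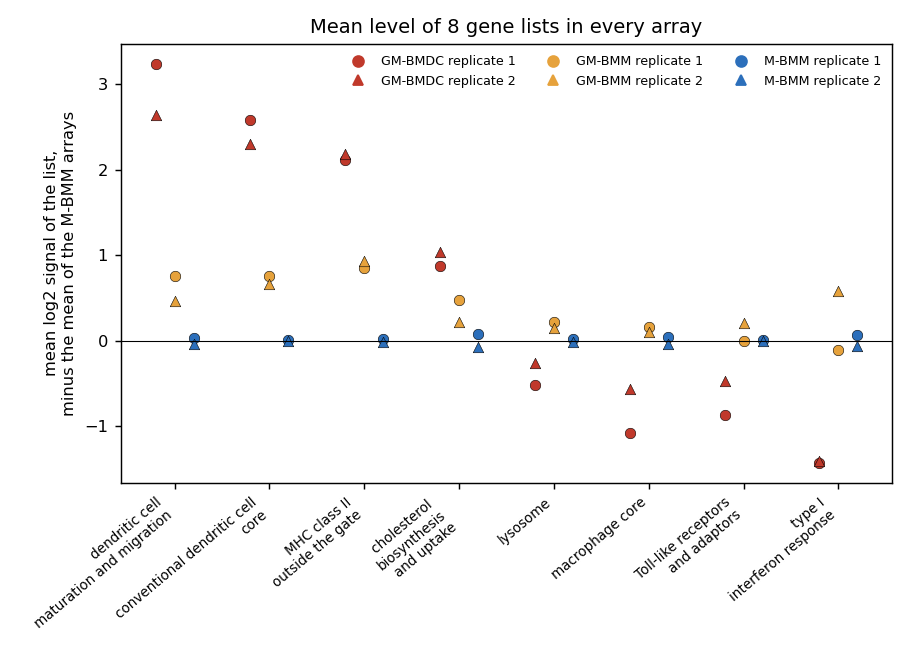
Mean log2 RMA signal of 8 gene lists in every array, minus the mean of the 2 M-BMM arrays, with GM-BMDC red, GM-BMM orange and M-BMM blue, circles for replicate 1 and triangles for replicate 2. GM-BMDC lie above both other populations in the first 4 lists and below them in the last 4, where the lysosome, macrophage core and Toll-like receptor lists place GM-BMDC replicate 2 above replicate 1.

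Cytokine genes moved both ways, with 6 (in turn 3, 4, 3 and 3) of 20 higher and 4 (in turn 3, 3, 2 and 2) lower. Inhba, which encodes activin A, measured 9.95 and 8.86 in GM-BMDC and 5.98 and 5.70 in M-BMM, 11.8-fold (3.56 ± 0.43) higher. Il12b, the shared chain of interleukins 12 and 23, measured 9.09 and 8.73 in GM-BMDC and 5.36 and 5.62 in M-BMM, 10.7-fold (3.42 ± 0.27) higher, and Il6 measured 8.16 and 7.41 in GM-BMDC and 5.15 and 4.82 in M-BMM, 6.96-fold (2.80 ± 0.30, M-BMM mean low) higher. Tnf measured 8.76 and 9.03 in GM-BMDC and 10.70 and 10.77 in M-BMM, 3.57-fold (-1.84 ± 0.21) lower, and Il10 was lower as given above. The other lower members were Il18 (-1.02 ± 0.28) and Ltb (-0.78 ± 0.15) by log2 difference, lost without GM-BMDC replicate 1 or either M-BMM array and without GM-BMDC replicate 2 or either M-BMM array. Il12b and Il10, whose products have opposing known effects on helper T cells, thus differed in opposite directions.

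The list of chemokine ligands had 9 of 23 higher and 6 (in turn 5, 6, 2 and 3) lower, with a median of 0.025. Beside Ccl17 and Ccl22, the T cell attractant gene Ccl5 measured 13.45 and 13.16 in GM-BMDC and 9.04 and 9.05 in M-BMM, 19.1-fold (4.25 ± 0.19) higher, and Cxcl16, a ligand and scavenger receptor, measured 11.62 and 11.16 in GM-BMDC and 9.32 and 9.12 in M-BMM, 4.49-fold (2.17 ± 0.28) higher. Ccl7, an attractant of monocytes, measured 7.14 and 7.48 in GM-BMDC and 10.49 and 10.67 in M-BMM, 9.67-fold (-3.27 ± 0.19) lower, and Ccl4 measured 7.51 and 7.26 in GM-BMDC and 8.81 and 8.70 in M-BMM, 2.59-fold (-1.37 ± 0.16) lower. Chemokine receptors had 6 of 15 higher and 2 (in turn 1, 2, 1 and 1) lower. Ccr2, the receptor for monocyte attractants, measured 10.09 and 11.04 in GM-BMDC and 7.36 and 6.29 in M-BMM, 13.4-fold (3.74 ± 0.39) higher, and Cxcr4, which holds cells in marrow, measured 9.68 and 9.40 in GM-BMDC and 8.19 and 8.002 in M-BMM, 2.72-fold (1.44 ± 0.14) higher. Cxcr5 was 2.33-fold (1.22 ± 0.16, M-BMM mean low) higher, and Cxcr3 was 2.40-fold (-1.26 ± 0.14) lower.

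Interleukin and interferon receptors had 12 of 28 higher and 6 (in turn 3, 4, 0 and 1) lower. Il7r, a receptor chain for interleukin 7 and TSLP, measured 12.09 and 11.74 in GM-BMDC and 8.94 and 8.65 in M-BMM, 8.68-fold (3.12 ± 0.25) higher. Il13ra1, shared by interleukins 4 and 13, measured 10.32 and 10.36 in GM-BMDC and 7.57 and 7.22 in M-BMM, 7.68-fold (2.94 ± 0.21) higher. Il6st, the signalling chain of the interleukin 6 family, measured 10.93 and 10.75 in GM-BMDC and 8.28 and 8.17 in M-BMM, 6.12-fold (2.61 ± 0.20) higher, and Il18rap, a chain of the interleukin 18 receptor, measured 8.08 and 8.05 in GM-BMDC and 5.58 and 5.40 in M-BMM, 5.94-fold (2.57 ± 0.20) higher. Each of these 4 receptor genes was higher in both GM-BMDC arrays, which the rule for genes given with a fold required. The lower members were Tgfbr2 (-1.06), Il10rb (-0.78), Il6ra (-0.75), Tnfrsf1a (-0.70), Il4ra (-0.58) and Ifnar2 (-0.46) by log2 difference.

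Most measured genes of sterol synthesis were higher in GM-BMDC. Of 20 genes of cholesterol biosynthesis and uptake, 15 (in turn 12, 10, 9 and 8) were higher and 0 lower, with a median of 0.74 against -0.0024 over all genes. Idi1, which makes isoprenoid precursors, measured 10.13 and 9.65 in GM-BMDC and 7.24 and 6.78 in M-BMM, 7.36-fold (2.88 ± 0.28) higher. The squalene epoxidase gene Sqle measured 8.89 and 9.10 in GM-BMDC and 7.49 and 7.16 in M-BMM, 3.19-fold (1.67 ± 0.19) higher, and Cyp51, which encodes a sterol demethylase, measured 8.65 and 8.86 in GM-BMDC and 7.11 and 6.48 in M-BMM, 3.89-fold (1.96 ± 0.24) higher. Fdft1, which commits precursors to sterols, was 2.98-fold (1.57 ± 0.22) higher. In these 4 genes both M-BMM arrays lay below both GM-BMDC arrays, which the rule for genes given with a fold required. The letters TCACNCCAC, or GTGGNGTGA, of the sterol regulatory element lay in the promoter of 1 of 16 such genes, against 1.396% of all genes.

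Other lipid genes moved both ways, with 7 of 21 genes of lipid transport, PPAR gamma and LXR higher and 4 (in turn 3, 3, 2 and 2) lower. Scd1, which desaturates fatty acids, measured 10.74 and 10.14 in GM-BMDC and 5.57 and 5.66 in M-BMM, 28.3-fold (4.82 ± 0.21) higher. Fasn, the fatty acid synthase gene, was 2.27-fold (1.18 ± 0.14) higher and the lipoprotein lipase gene Lpl 2.27-fold (1.18 ± 0.12) higher. Abca1, which exports cholesterol, measured 9.67 and 9.77 in GM-BMDC and 10.76 and 10.66 in M-BMM, 1.99-fold (-0.99 ± 0.15) lower, and Mylip, which degrades the LDL receptor, measured 8.92 and 8.80 in GM-BMDC and 10.05 and 9.89 in M-BMM, 2.16-fold (-1.11 ± 0.13) lower. Nr1h3, which encodes LXR alpha, has been given above with the fits that lost its call. Members of this list thus passed in both directions, and the part of LXR was not tested.

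Glycolysis had 2 (in turn 2, 2, 1 and 1) of 17 genes higher, Pfkp (1.69) and Slc16a3 (0.67), and 3 (in turn 1, 3, 1 and 1) lower, Hk3 (-1.34), Hk2 (-0.93) and Pfkm (-0.65), by log2 difference. The phosphofructokinase gene Pfkp was 3.22-fold (1.69 ± 0.15) higher and the hexokinase gene Hk3 2.53-fold (-1.34 ± 0.15) lower. The mitochondrial respiratory chain had 0 of 26 higher and 6 (in turn 2, 6, 1 and 1) lower, led by Ndufa4 at 2.66-fold (-1.41 ± 0.13). The shares called were 29.4% for glycolysis and 23.1% for the respiratory chain, against 16.7% of all genes. Of the respiratory chain calls, that of Ndufa4 was the one held without either M-BMM array.

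Among arginine and alternative activation genes, 6 of 14 were higher and 1 (in turn 1, 0, 0 and 0, 2 without either GM-BMM array) lower, Tgm2 (-0.61). The cationic amino acid transporter gene Slc7a2 measured 9.23 and 8.79 in GM-BMDC and 5.56 and 5.44 in M-BMM, 11.4-fold (3.51 ± 0.16) higher, and GM-BMM stood at 11.11 and 10.96. Egr2, a zinc-finger factor, measured 10.26 and 10.28 in GM-BMDC and 5.46 and 6.08 in M-BMM, 22.7-fold (4.50 ± 0.25) higher, and Retnla, a secreted protein induced by interleukin 4, measured 7.11 and 6.18 in GM-BMDC and 4.18 and 4.49 in M-BMM, 4.94-fold (2.31 ± 0.29, M-BMM mean low) higher. Prostaglandin and leukotriene genes had 7 (in turn 10, 5, 2 and 1) of 18 higher and 3 (in turn 2, 3, 1 and 2) lower, Hpgds (-3.98), Pla2g4a (-1.09) and Ptges (-0.71). The prostacyclin receptor gene Ptgir measured 8.26 and 8.43 in GM-BMDC and 6.70 and 6.79 in M-BMM, 3.03-fold (1.60 ± 0.12) higher.

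Iron and heme genes had 3 (in turn 2, 3, 1 and 0) of 20 higher, Hamp (2.12), Trf (1.84) and Aco1 (0.67), and 7 (in turn 6, 8, 4 and 4) lower. Beside Cp and Spic, the iron importer gene Slc11a2 measured 8.12 and 7.87 in GM-BMDC and 9.97 and 9.97 in M-BMM, 3.93-fold (-1.97 ± 0.19) lower, and Hmox1, which breaks down heme, measured 10.29 and 10.42 in GM-BMDC and 11.32 and 11.14 in M-BMM, 1.83-fold (-0.87 ± 0.12) lower. Purinergic receptors had 2 of 12 higher, P2ry10 and P2ry14, and 4 lower. The share called was 50% in the iron list and 50% in the purinergic list, against 16.7% of all genes. P2ry14, a receptor for nucleotide sugars, measured 9.70 and 9.93 in GM-BMDC and 7.48 and 7.53 in M-BMM, 4.95-fold (2.31 ± 0.19) higher. P2ry2, P2rx1 and P2rx4, receptors for extracellular nucleotides, were 3.81-fold (-1.93 ± 0.14), 4.05-fold (-2.02 ± 0.23) and 1.99-fold (-0.996 ± 0.13) lower. The remaining lower member was P2rx7, the ATP receptor that triggers inflammasomes, at a log2 difference of -1.48 ± 0.26.

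Matrix and protease genes held some of the widest contrasts. Of 24 measured, 11 (in turn 9, 8, 6 and 6) were higher and 5 lower. Mmp12, the macrophage elastase, measured 12.89 and 12.81 in GM-BMDC and 7.73 and 7.59 in M-BMM, 36.7-fold (5.20 ± 0.16) higher, and the fibronectin gene Fn1 measured 11.63 and 12.01 in GM-BMDC and 6.87 and 6.44 in M-BMM, 35.7-fold (5.16 ± 0.20) higher, while GM-BMM stood at 12.80 and 12.35 in Mmp12 and at 11.58 and 11.26 in Fn1. Mmp25, a membrane-bound metalloprotease, measured 11.22 and 10.38 in GM-BMDC and 5.71 and 5.96 in M-BMM, 31.1-fold (4.96 ± 0.25) higher, and GM-BMM stood at 5.98 and 6.04. The gelatinase gene Mmp9 measured 6.31 and 6.02 in GM-BMDC and 9.34 and 9.22 in M-BMM, 8.66-fold (-3.12 ± 0.13) lower. Mmp14 was 3.12-fold (-1.64 ± 0.21) lower, Mmp2 2.69-fold (-1.43 ± 0.13) lower and the inhibitor gene Timp1 3.02-fold (1.60 ± 0.18) higher.

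Adhesion genes were higher in part. Of 17 genes of cell junctions, 10 (in turn 9, 10, 6 and 8) were higher and 1 (in turn 0, 0, 0 and 0, 0 without either GM-BMM array) lower, Cadm1 (-0.44). Cldn1, a tight-junction claudin, measured 10.88 and 10.52 in GM-BMDC and 5.12 and 5.48 in M-BMM, 42.1-fold (5.39 ± 0.33) higher, and Jup, which links cadherins to the cytoskeleton, measured 9.68 and 9.62 in GM-BMDC and 7.09 and 6.94 in M-BMM, 6.21-fold (2.63 ± 0.16) higher. The adhesion molecule genes Alcam and Nectin1 were 4.63-fold (2.21 ± 0.28) and 3.48-fold (1.80 ± 0.15) higher. Integrins had 3 of 18 higher, Itgax (5.97), Itga1 (3.84) and Itgb8 (0.77), and 3 (in turn 2, 4, 1 and 1) lower, Itga9 (-3.37), Itgal (-1.99) and Itga6 (-1.88), by log2 difference. The collagen receptor gene Itga1 measured 8.66 and 8.85 in GM-BMDC and 4.85 and 4.98 in M-BMM, 14.4-fold (3.84 ± 0.43, M-BMM mean low) higher, and the laminin receptor gene Itga6 measured 8.27 and 7.999 in GM-BMDC and 10.13 and 9.90 in M-BMM, 3.68-fold (-1.88 ± 0.16) lower. Regulators of the actin cytoskeleton had 5 (in turn 5, 5, 3 and 3) of 22 higher and 2 (in turn 1, 3, 1 and 0) lower, Rac2 (-0.94) and Tln1 (-0.67). Beside Fscn1, the actin-binding genes Lsp1 and Myo1g were 8.85-fold (3.15 ± 0.23) and 3.56-fold (1.83 ± 0.17) higher. The shares called were 64.7% of the junction, 33.3% of the integrin and 31.8% of the actin regulator genes, against 16.7% of all genes.

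Cell cycle and DNA replication genes differed little. Of 37 measured, 3 (in turn 2, 1, 1 and 0, 5 without either GM-BMM array) were higher, Tyms (0.87), Plk1 (0.63) and Mcm7 (0.49), and 1 lower, E2f1, which measured 7.45 and 7.72 in GM-BMDC and 8.66 and 8.53 in M-BMM, 2.02-fold (-1.01 ± 0.14) lower. That share lay below the 16.7% of all genes. Apoptosis regulators had 5 (in turn 4, 5, 3 and 2) of 16 higher and 2 (in turn 2, 1, 1 and 1) lower, Bid (-1.19) and Bcl2l1 (-0.52). Pmaip1, which encodes the killer protein NOXA, and the survival gene Birc2 were 2.39-fold (1.26 ± 0.14) and 2.32-fold (1.22 ± 0.17) higher, and Bid was 2.28-fold (-1.19 ± 0.15) lower. Immediate-early and heat-shock genes, which handling can induce, had 8 (in turn 4, 7, 4 and 4) of 25 higher and 2 (in turn 0, 2, 0 and 0) lower, Jun (-0.87) and Hsp90aa1 (-0.53). Beside Nr4a3 and Egr2, Nr4a2 was 4.50-fold (2.17 ± 0.16) higher and the AP-1 gene Fosl2 2.63-fold (1.39 ± 0.14) higher, and the part of handling was not tested.

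**Figure D5:**
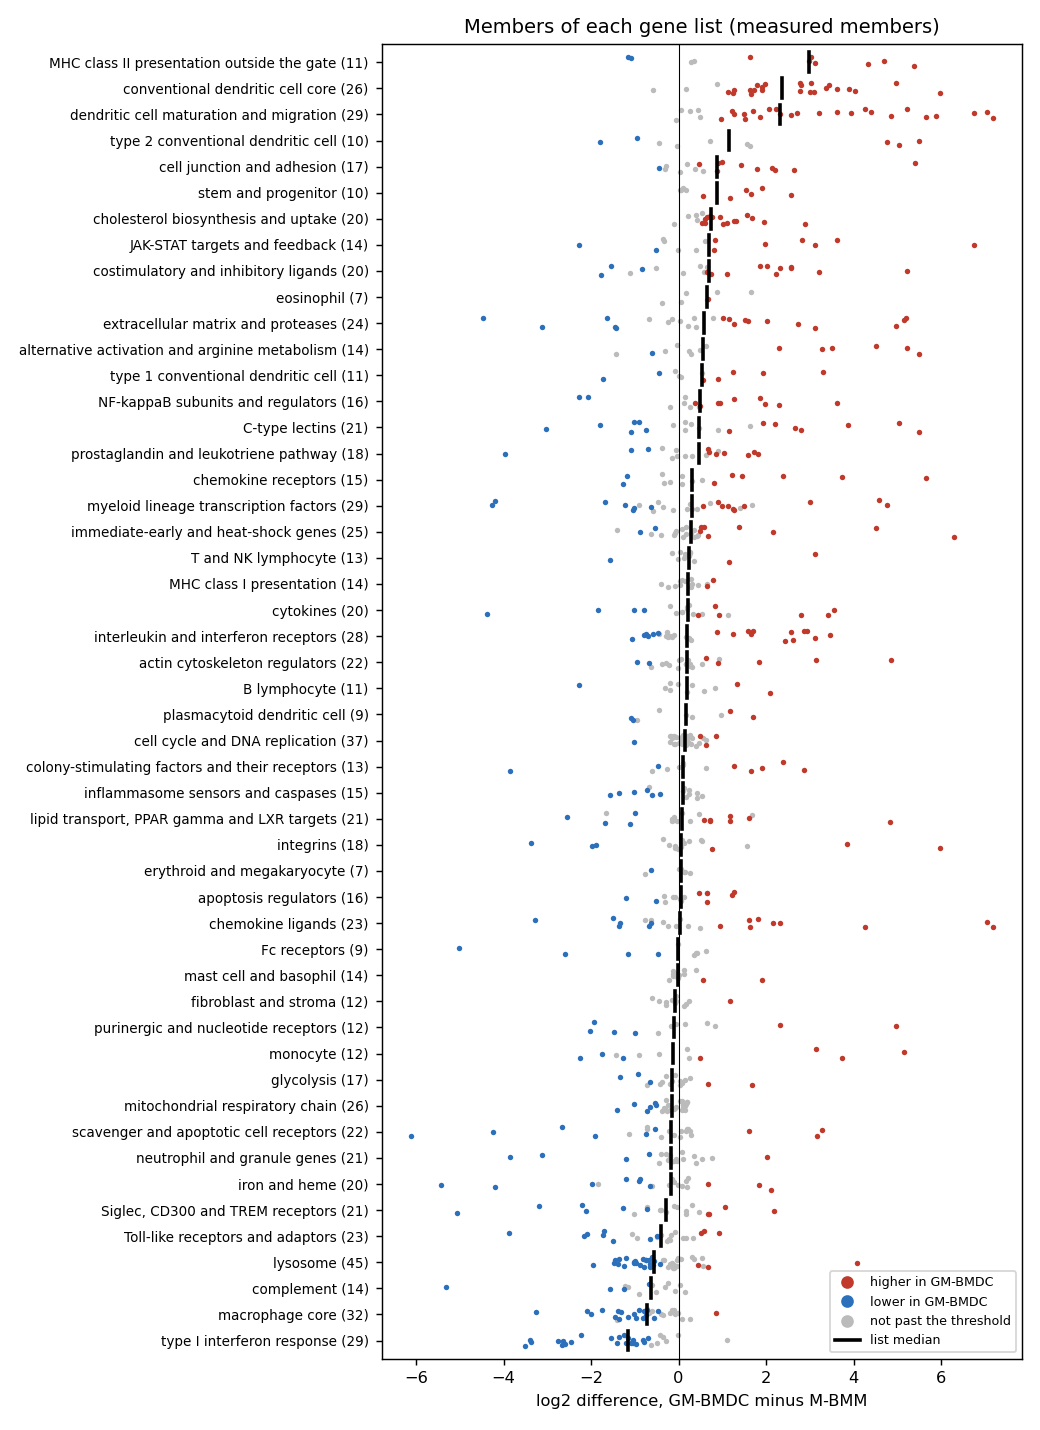
Log2 difference, GM-BMDC minus M-BMM, of each measured member of 50 gene lists, 1 row per list with the number of measured members in brackets; red points passed as higher, blue points as lower, grey points did not pass, and the black bar is the list median. Medians run from 2.99 for class II presentation outside the gate to -1.16 for the type I interferon response, and most lists hold points on both sides of 0.

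Markers of other cells that a sort could carry were read in the same way, with sums of linear signal over each list. The brightest genes weigh most in such a sum. Of 12 monocyte genes, 4 were higher, Fn1 (5.16), Ccr2 (3.74), Vcan (3.14) and Nr4a1 (0.48), and 3 lower, Plac8 (-2.26), Ms4a4c (-1.76) and Treml4 (-1.26). The sums of the list were 5865 and 7913 in GM-BMDC against 3231 and 2777 in M-BMM. Fn1 made up most of each GM-BMDC sum, and the median log2 difference of the list was -0.13. Chil3 (0.23 ± 0.34) and Hp (-0.91 ± 0.40) did not pass, and Vcan, a proteoglycan of monocytes, measured 9.04 and 8.61 in GM-BMDC and 5.56 and 5.82 in M-BMM, while Plac8 measured 6.38 and 5.93 in GM-BMDC and 8.59 and 8.25 in M-BMM. Of 21 neutrophil and granule genes, 1 (in turn 1, 0, 0 and 0, 2 without either GM-BMM array) was higher, Mmp8 (2.01), and 4 (in turn 4, 3, 2 and 2) lower, Csf3r (-3.86), Mmp9 (-3.12), Lcn2 (-1.20) and Padi4 (-0.68), with sums of 4756 and 5057 in GM-BMDC against 8417 and 8046 in M-BMM. The granule genes Elane (5.95 and 6.07 in GM-BMDC against 6.003 and 6.08 in M-BMM) and Mpo (6.13 and 5.90 in GM-BMDC against 6.31 and 6.30 in M-BMM) varied little across these 4 arrays. The shares called were 58.3% of the monocyte and 23.8% of the neutrophil genes, against 16.7% of all genes.

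Of 11 B lymphocyte genes, 2 (in turn 2, 4, 1 and 2) were higher, Cd79a (2.08) and Ms4a1 (1.34), and 1 lower, Cd79b (-2.28). Cd79b, a signalling chain of the B cell receptor, measured 8.49 and 7.32 in GM-BMDC and 10.16 and 10.21 in M-BMM, and its partner Cd79a measured 7.15 and 6.23 in GM-BMDC and 4.73 and 4.49 in M-BMM, so the pair differed in opposite directions. Sums of the list were 1818 and 1213 in GM-BMDC against 2290.3 and 2404 in M-BMM. Of 13 T and NK lymphocyte genes, 2 (in turn 2, 2, 1 and 1) were higher, Il7r (3.12) and Cd8a (1.16), and 1 lower, Cd4 (-1.56), with sums of 4915 and 3897 in GM-BMDC against 999.7 and 912 in M-BMM, and Il7r made up most of the sum in GM-BMDC. Cd3e (6.16 and 6.28 in GM-BMDC against 5.84 and 6.13 in M-BMM) did not pass. Mast cell and basophil genes had 2 (in turn 1, 1, 1 and 1) of 14 higher, Kit (1.90) and Gata2 (0.55), and 0 lower, with sums of 706 and 628 in GM-BMDC against 455 and 463 in M-BMM. The shares called were 27.3% of the B lymphocyte, 23.1% of the T and NK and 14.3% of the mast cell genes, against 16.7% of all genes.

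Eosinophil genes had 1 (in turn 0, 0, 0 and 0, 4 without either GM-BMM array) of 7 higher, Siglecf (0.68), and 0 lower, with sums of 577 and 662 in GM-BMDC against 371 and 424 in M-BMM. Erythroid and megakaryocyte genes had 0 of 7 higher and 1 (in turn 0, 1, 0 and 0, 2 without either GM-BMM array) lower, Gp9 (-0.62), with sums of 820.3 and 894 in GM-BMDC against 1329 and 1127 in M-BMM. Fibroblast and stromal genes had 1 of 12 higher, Lepr (1.17), and 0 (in turn 0, 1, 0 and 0, 1 without either GM-BMM array) lower, with sums of 829 and 894 in GM-BMDC against 938 and 932 in M-BMM. Progenitor genes had 6 of 10 higher and 0 lower, with sums of 1489 and 1161 in GM-BMDC against 524 and 542 in M-BMM. Beside Kit, Flt3 and Slamf1, the progenitor marker Cd34 measured 6.54 and 7.13 in GM-BMDC and 5.34 and 5.26 in M-BMM, 2.89-fold (1.53 ± 0.19) higher, and the homeobox gene Meis1 measured 6.93 and 6.83 in GM-BMDC and 5.64 and 5.75 in M-BMM, 2.27-fold (1.19 ± 0.15) higher. The shares called were 14.3% of the eosinophil, 14.3% of the erythroid, 8.33% of the stromal and 60% of the progenitor genes. The part of such cells in the results above was not tested.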

How the data were processed

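The deposited values are log2 signals that the authors made with Affymetrix Expression Console 1.1 and RMA, per the submitters' processing notes. RMA subtracts background, equalises the distributions of the arrays and combines probes into probe sets, and it compresses differences near background. Of 35556 probe sets, 21789 had 1 gene in the array annotation, 1621 several and 12146 none, and only the first were used; 999 genes had more than 1 probe set. The number of arrays limits the precision: the standard error of a log2 difference had a median of 0.132.

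The 6 arrays were fitted together with limma 3.58.1 in R 4.3.3 (3 residual and 4.34 prior degrees of freedom), with two-sided moderated tests, no filter, and Benjamini-Hochberg adjustment over 19938 genes within each comparison. The fit was checked on simulated data in which 200 of 19938 genes were changed. In that setting it found 0% of them at 1.5-fold, 71.5% at 2-fold and 99% at 4-fold. The data gave 3323 calls, far more than the genes changed there, and the adjusted threshold is less strict where more genes differ. These shares therefore do not carry over to the data. Genes that did not pass may still differ. Tables used pandas 2.3.3 with NumPy 2.4.6 in Python 3.11.15, and plots matplotlib 3.10.9.

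The 52 lists hold 1027 entries, 947 of them measured, and lists share genes. The members and lists were chosen with earlier results of these data known. Named genes are the 12 largest differences in each direction and up to 4 members of each list and direction that passed in 6 arrays and in every fit with 1 array left out, whose arrays did not overlap and whose fold moved by at most 1.5 times. Gate, growth factor receptor, lineage factor and sex genes and markers of other cells are named whatever their result. Members behind a count of 5 or fewer, and other genes singled out, were chosen after their values were seen. Sequences are from RefSeq, build GRCm38.p6.

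Alternatives left out arrays, used the replicate number as a block, fitted 4 arrays, or changed the variance model, normalization, probe sets, genes tested and fold required. Same-numbered deviations correlated at 0.0240, -0.1319 and 0.0263 over the 3 pairs of populations, which gave no sign that replicate numbers pair the samples. Such correlations do not exclude pairing, and both GM-CSF arrays numbered 1 share high Xist and low Eif2s3y.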

Additional observations from a re-analysis of the deposited data

How the results depend on the processing

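The counts of 1548 higher and 1775 lower genes stayed within 1.5 times under a replicate block (1457 and 1603), a trended and robust variance (1534 and 1809), median centring (1358 and 2100), repeated quantile normalization (1569 and 1877), only the 4 arrays compared (1602 and 1810), genes above the median signal (1364 and 1812), the mean of a gene's probe sets (1550 and 1780), all probe sets (1386 and 1400) and genes off the X and Y chromosomes (1512 and 1728). Whether the replicate numbers pair the samples is not settled, so the reason for the lower counts under the block cannot be told. Crossing the M-BMM numbers, chosen after seeing the data, gave 1461 and 1694. Leaving out 1 array gave 731 to 1602 higher and 557 to 1810 lower genes and a distance of 0.628 to 0.697. Without both GM-CSF arrays numbered 1 the counts were 1591 and 1522, and without both numbered 2, also chosen after seeing the data, 1834 and 2201. Requiring a 2-fold difference left 771 and 614. Without limma's moderation 8 and 9 genes passed by that test, with 4628 at an unadjusted p under 0.05, against 5621 with moderation. The distance was 0.851 over genes above the median signal. Of the 163 called genes that met the rule for naming and the 27 other called genes of the sets named whatever their result, none changed direction. Of the 163, 160 did not pass without moderation and 6 differed by under 2-fold. Passing with 1 array left out was required for naming, so it says nothing of their stability. No remaining alternative ended a call of these. Only 146 were present among genes above the median signal and 159 among genes off the X and Y chromosomes. With 2 arrays in a population, the number of arrays limits what can be called, the cause of the lower counts without an M-BMM array was not tested, and signals near background give only compressed differences.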

Other observations

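Outside the lists, genes met the same rule of stability, and those named here were chosen after their values were seen. Dcstamp, which cells need to fuse into osteoclasts and giant cells, measured 10.81 and 10.63 in GM-BMDC and 5.23 and 5.88 in M-BMM, 35.8-fold (5.16 ± 0.32) higher in GM-BMDC. Cd24a, a surface protein of many immature blood cells, measured 11.74 and 12.07 in GM-BMDC and 6.81 and 6.53 in M-BMM, 37.7-fold (5.23 ± 0.43) higher. The vitamin D receptor gene Vdr measured 10.79 and 9.996 in GM-BMDC and 5.57 and 5.68 in M-BMM, 27.3-fold (4.77 ± 0.34) higher, and Kynu, a kynureninase of tryptophan breakdown, measured 11.04 and 10.84 in GM-BMDC and 6.13 and 5.997 in M-BMM, 29.3-fold (4.87 ± 0.15) higher. Cytip, a regulator of leukocyte adhesion, measured 11.91 and 11.53 in GM-BMDC and 6.74 and 6.16 in M-BMM, 38.7-fold (5.27 ± 0.56) higher, and the semaphorin gene Sema6d measured 11.16 and 10.95 in GM-BMDC and 6.16 and 5.74 in M-BMM, 34.4-fold (5.11 ± 0.20) higher. Gpr183, which positions cells by oxysterol gradients, was 11.3-fold (3.50 ± 0.14) higher and Klrk1, which encodes NKG2D, 12.4-fold (3.63 ± 0.15, M-BMM mean low) higher. On the side of M-BMM, the acute-phase gene Saa3 measured 9.40 and 9.65 in GM-BMDC and 13.12 and 13.10 in M-BMM, 12.04-fold (-3.59 ± 0.15) lower, and Folr2, a folate receptor of tissue macrophages, measured 5.21 and 5.20 in GM-BMDC and 8.31 and 7.72 in M-BMM, 7.01-fold (-2.81 ± 0.19) lower. The fatty acid binding protein gene Fabp7 measured 7.15 and 7.29 in GM-BMDC and 10.99 and 10.60 in M-BMM, 11.9-fold (-3.58 ± 0.41) lower, and Aoah, which inactivates lipopolysaccharide, measured 8.48 and 9.62 in GM-BMDC and 12.13 and 12.13 in M-BMM, 8.47-fold (-3.08 ± 0.32) lower. Pecam1, an adhesion molecule, was 6.25-fold (-2.64 ± 0.13) lower and the membrane protein gene Ms4a7 9.88-fold (-3.30 ± 0.26) lower.

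Probe sets assigned to 296 microRNA genes were also measured, and 148 were low in both populations. Of the 296, 6 passed as higher and 8 as lower in GM-BMDC by limma. That share lay well below the 16.7% called among all genes. These probe sets read the gene or hairpin region, not the mature RNA, and RMA values were made for all probe sets alike. Mir155, whose product is induced in activated myeloid cells, measured 8.95 and 7.87 in GM-BMDC and 5.87 and 6.02 in M-BMM, with a log2 difference of 2.46 ± 0.44 (limma adjusted p = 0.00906), and was lost without either M-BMM array. Mir142, a microRNA gene of blood cells, measured 7.90 and 7.80 in GM-BMDC and 6.92 and 6.54 in M-BMM, 2.18-fold (1.12 ± 0.17) higher. Mir99a measured 4.99 and 4.98 in GM-BMDC and 6.54 and 6.69 in M-BMM, 3.10-fold (-1.63 ± 0.11, GM-BMDC mean low) lower, and Mirlet7c-1, low in both populations, measured 3.60 and 3.54 in GM-BMDC and 4.96 and 4.85 in M-BMM, a log2 difference of -1.34 ± 0.11. Both lie beside each other on chromosome 16, and their host gene Mir99ahg measured 5.01 and 4.58 in GM-BMDC and 7.87 and 7.67 in M-BMM, 7.85-fold (-2.97 ± 0.19, GM-BMDC mean low) lower. Mir340 measured 5.03 and 4.69 in GM-BMDC and 6.26 and 6.06 in M-BMM, 2.47-fold (-1.30 ± 0.15, GM-BMDC mean low) lower. The mature sequences of these genes in RefSeq (GRCm38.p6) are shown to identify the products, with the seed, bases 2 to 8, in capitals. None of the 7 shares its seed with another.

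mmu-miR-155-5p: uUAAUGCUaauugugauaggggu
mmu-miR-142a-5p: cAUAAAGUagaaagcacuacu
mmu-miR-142a-3p: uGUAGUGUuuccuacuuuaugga
mmu-miR-99a-5p: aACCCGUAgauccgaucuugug
mmu-let-7c-5p: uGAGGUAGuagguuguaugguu
mmu-miR-340-5p: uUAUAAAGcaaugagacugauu
mmu-miR-340-3p: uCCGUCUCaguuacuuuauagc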
